A study of Mus musculus with 16 samples.

Results

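The 8 genes described here are 7 aquaporins, Aqp1, Aqp3, Aqp4, Aqp7, Aqp8, Aqp9 and Aqp11, and Gpd1, the cytosolic glycerol 3-phosphate dehydrogenase. They were listed as a gene family with its neighbour in glycerol metabolism, and the list was selected on values of these libraries: the CPM difference of Aqp7 between genotypes was already known. That difference is therefore given as a description with no p-value. Of the 8 genes, 7 have a row in the deposited table of 15119 genes and were among the 14434 genes tested. Aqp3 was read from a second deposited table of 35712 genes, where its counts were too low to be tested.

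RNA was sequenced from livers of female mice aged to 9 months on chow, which then stayed on chow or were moved for 12 weeks to the high-fat diet TD. 88137 (HFD). The 4 groups of 4 libraries each were wild-type (WT) on chow, hepatocyte knockout (LKO) of Arglu1 on chow, WT on HFD and LKO on HFD. Arglu1 encodes a nuclear coregulator that binds RNA and the transcription machinery. The labels name neither the Cre driver nor the deleted exons of the LKO, and they do not state whether the libraries come from different animals. The p-values thus measure the spread between libraries, which may be technical.

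Aquaporins are membrane channels that let water cross by osmosis, and one branch of the family, the aquaglyceroporins, also passes glycerol. In the fasted animal, glycerol released by fat cells, in part through AQP7, is carried to the liver, where AQP9 in the hepatocyte membrane is the main entry route. Inside the cell glycerol kinase makes glycerol 3-phosphate, which GPD1 interconverts with dihydroxyacetone phosphate, at the branch between glucose and triglyceride synthesis. AQP8 serves water movement into bile, and AQP1 is typical of endothelium and bile ducts.

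The libraries held between 19142612 and 25120565 estimated counts. Arglu1 measured 39.5 to 45.1 CPM (the estimated count scaled to a common library size with TMM) in the 8 WT libraries and 12.8 to 16.7 in the 8 LKO libraries, without overlap. On the second principal component, which held 13.8% of the variance, LKO chow libraries 3 and 4 lay at 38.1 and 34.7 and libraries 1 and 2 at -10.7 and -11.1. The summed CPM of 7 hepatocyte marker genes ranged from 64640 to 120700 across all 16 libraries, and none of the 7 was at 0 in any group. On HFD that sum did not overlap between genotypes, at 64640 to 69870 in WT and 82610 to 96280 in LKO. Most of it was Alb, with a mean of 49710 of 67640 CPM in WT HFD and 74380 of 90190 in LKO HFD. On HFD 1 of the 7 genes was called higher in LKO, Alb, and 2 lower, Ttr and Glul, where 17.9% of all genes were called. On chow 0 were called higher and 2 lower, Cps1 and Hnf4a, where 24.7% of all genes were called.

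Aqp7 and Aqp3 lie next to each other on the minus strand of chromosome 4 (mm10), Aqp7 at 41033074 to 41048139 and Aqp3 at 41092722 to 41098183, with their starts 50.0 kb apart. The 250 bases upstream of 1 of the 2 RefSeq starts of Aqp7, the one at 41048136, and of the RefSeq start of Aqp3 (GRCm38.p6, the same coordinates as mm10) are shown, because Aqp7 was measured far higher in LKO liver while Aqp3, next to it, was near 0 CPM in every group. The windows are chr4:41048137-41048386 for Aqp7 and chr4:41098184-41098433 for Aqp3, both written 5′ to 3′ on the minus strand. Capitals mark the matches found in a search of both strands for AGGTCA, a half-site bound by nuclear receptors, for the same half-site repeated directly after 1 base of any kind (a DR1 element), for TATAAA and for CCAAT.
Aqp7: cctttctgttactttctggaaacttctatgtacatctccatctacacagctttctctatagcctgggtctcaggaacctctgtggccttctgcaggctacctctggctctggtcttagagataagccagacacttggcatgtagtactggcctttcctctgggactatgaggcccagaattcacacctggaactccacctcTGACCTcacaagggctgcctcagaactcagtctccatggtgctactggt
Aqp3: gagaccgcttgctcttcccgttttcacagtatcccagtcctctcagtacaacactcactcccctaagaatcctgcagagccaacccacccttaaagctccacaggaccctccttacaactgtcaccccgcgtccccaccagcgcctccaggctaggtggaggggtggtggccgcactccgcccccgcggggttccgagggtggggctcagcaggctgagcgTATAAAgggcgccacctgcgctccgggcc
The Aqp7 window shown held 1 AGGTCA match, on the opposite strand and so read here as TGACCT, 49 to 44 bases before the start, and no match to the other 3 motifs. The window of the second RefSeq start of Aqp7, at 41047962 inside the gene, overlaps it, is not shown and held 2 AGGTCA matches on the opposite strand, 1 of them the same site. The Aqp3 window held 1 TATAAA match, 29 to 24 bases before the start. Of 32851 RefSeq windows of the same length, 14.02% held AGGTCA, 0.033% the repeated half-site, 12.4% TATAAA and 33.9% CCAAT. These matches describe the letters of the windows and are not measured binding sites.

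Aqp7, the adipose-type glycerol channel, was close to undetected in WT liver and readily measured in LKO liver. In WT on chow the 4 libraries had 0.262, 0.474, 0.118 and 0.407 CPM, from 2.2 to 11.3 estimated counts. In LKO on chow they had 9.63, 14.9, 18.4 and 16.03 CPM, and the lowest LKO library was far above the highest WT library. On HFD, WT libraries measured 0.801, 0.482, 0.767 and 0.593 CPM and LKO libraries 17.8, 18.4, 14.2 and 21.0 CPM, again without overlap. The mean was 0.315 ± 0.159 CPM in WT and 14.8 ± 3.71 in LKO on chow, and 0.661 ± 0.150 in WT and 17.8 ± 2.81 in LKO on HFD (SD, n = 4 each). The ratio of the means was 46.8 on chow and 27.0 on HFD, and the fitted log2 fold changes were 5.54 (SE 0.287) and 4.73 (SE 0.255).

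**Figure D1:**
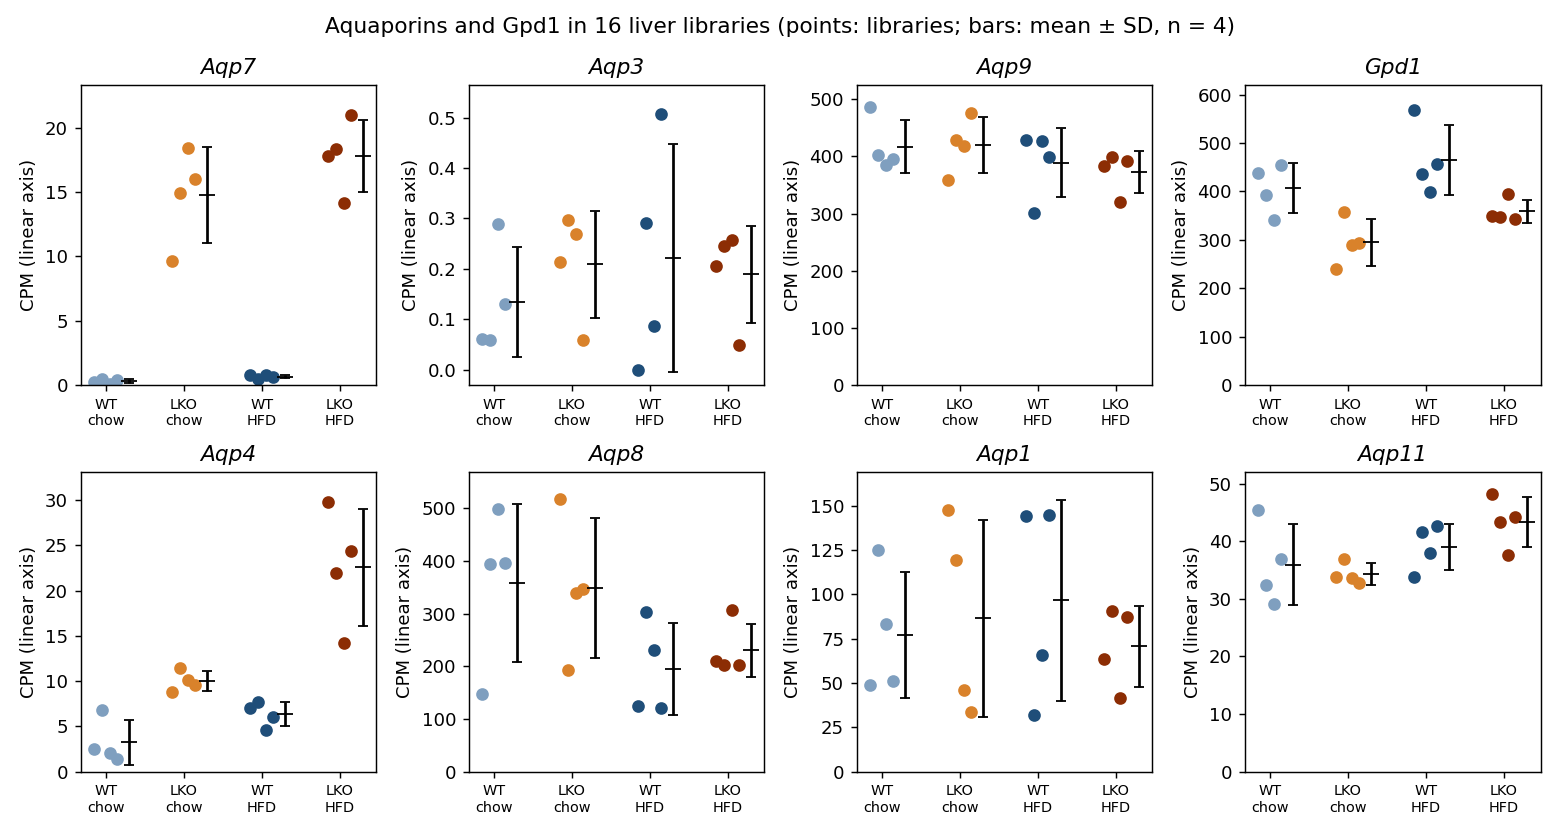
CPM of the 8 genes (linear vertical axes) in each of the 16 libraries, one point per library, with the mean and SD of 4 libraries beside each group of WT or LKO on chow or HFD. Aqp7 sits below 1 CPM in the 8 WT libraries and between 9.63 and 21.0 in the 8 LKO libraries, whereas Aqp9 covers one range, 300.5 to 486.1, in all groups.

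The fitted interaction for Aqp7, the log2 difference on HFD minus that on chow, was -0.81 (SE 0.42, adjusted p = 0.596 by edgeR's quasi-likelihood test), so the 2 differences were not told apart. A reservation applies to the absolute level and, because the WT counts are few, to the size of the ratios between genotypes. Transcripts of 100 other genes share with Aqp7 a stretch of at least 100 bases at 95% identity or more, the longest of 167 bases. How reads from such stretches were assigned is not given in the sources used here. The estimated counts of Aqp7 were whole in 0 of 16 libraries (tolerance 1e-06), but this did not follow the shared stretches. Those of Aqp9 and Aqp11, with 0 such genes, were also whole in 0 of 16, and those of Gpd1, with 1, in 16.

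Aqp7 is known best from fat cells, so the adipocyte markers are given beside it. The summed CPM of 7 adipocyte genes was 3.50 to 9.85 in WT and 5.59 to 18.5 in LKO on chow, and 6.67 to 25.1 in WT and 10.2 to 14.9 in LKO on HFD, with overlap in both diets. Adipoq, the adiponectin gene that defines fat cells, was at 0 in LKO chow libraries 1, 2 and 4 and LKO HFD libraries 2 and 3, in which Aqp7 measured 9.63 to 18.4 CPM. The highest Adipoq of all 16 libraries, 2.14 CPM, was in LKO chow library 3, which also had the highest Aqp7 of its group, 18.4 CPM. In WT HFD library 4 Adipoq reached 1.40 CPM and Aqp7 was 0.593. Cfd, the adipsin gene of the same list, went with the LKO on HFD: it was 10.4, 6.45, 2.43 and 7.54 CPM there and 1.68, 0.983, 0.161 and 1.99 in WT, without overlap. On chow Cfd was 0 to 1.72 CPM in WT and 0.0386 to 2.10 in LKO, with overlap. The part of the adipocyte genes in the values of Aqp7 was not tested.

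The 8 tested genes lying within 250 kb of Aqp7, a distance chosen after their values were seen, had small differences between genotypes. On chow 2 of the 8 were called, a share near the 24.7% of all genes, both lower in LKO: Ube2r2, a ubiquitin-conjugating enzyme, at -0.31 (adjusted p = 0.00443) and the co-chaperone Bag1 at -0.28 (adjusted p = 0.0314). On HFD the lowest adjusted p among the 8 was 0.15, for Chmp5. The median log2 fold change of the 8 was -0.09 on chow and -0.09 on HFD.

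**Figure D2:**
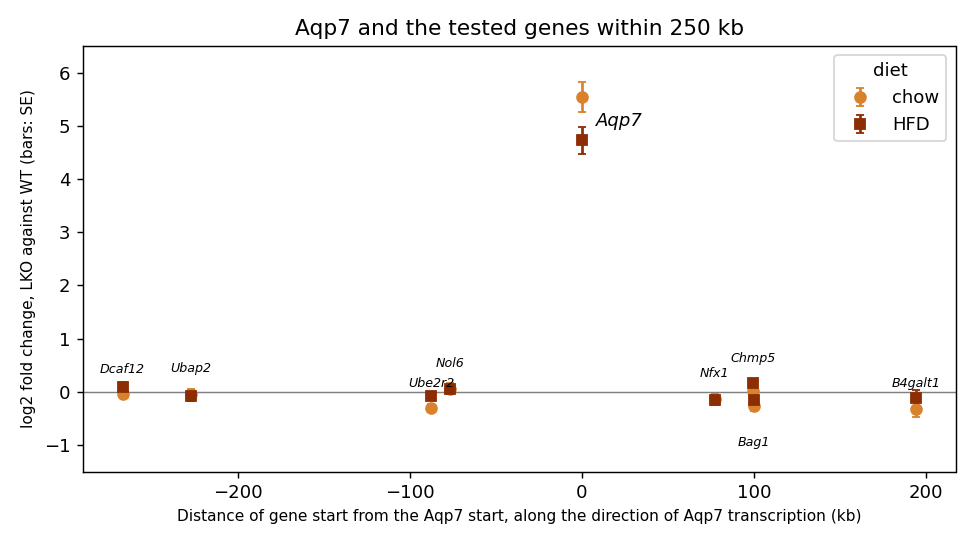
Log2 fold change of LKO against WT (vertical axis, bars are SE) for Aqp7 and the 8 tested genes within 250 kb, placed by the distance of their start from the Aqp7 start in kb along its direction of transcription. Aqp7 stands at 5.54 on chow and 4.73 on HFD while the neighbours lie close to 0.

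Aqp3, the other member of the pair on chromosome 4 and a glycerol channel of epithelia, was barely detected in any group. Its CPM was 0.0598, 0.0580, 0.289 and 0.130 in WT and 0.213, 0.297, 0.269 and 0.0588 in LKO on chow. On HFD it was 0, 0.292, 0.0868 and 0.507 in WT and 0.206, 0.246, 0.258 and 0.0489 in LKO. The groups overlapped throughout, and the largest library value rested on 11.2 estimated counts. No test was made for Aqp3 because its counts did not pass the filter on low values.

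Aqp9, the glycerol entry channel of hepatocytes (chromosome 9, 71110659 to 71168682), was abundant in all groups and differed between them by less than the spread of the libraries. Its CPM was 486.1, 402, 385 and 395 in WT and 358, 429, 418 and 476 in LKO on chow. On HFD it was 429, 300.5, 427 and 399 in WT and 382, 399, 319 and 392 in LKO. The ranges overlapped in every comparison. The log2 fold change of LKO against WT was 0.01 (SE 0.124, adjusted p = 0.965) on chow and -0.06 (SE 0.124, adjusted p = 0.801) on HFD by edgeR. WT chow library 1 stood above the other 3 of its group, which lay between 385 and 402.

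Gpd1 (chromosome 15, 99717515 to 99725005) was lower in LKO than in WT liver on chow. WT libraries on chow measured 438, 394, 342 and 456 CPM and LKO libraries 239, 358, 290.1 and 294. The groups overlapped at 1 point, since LKO library 2 was above WT library 3. On HFD, WT libraries had 569, 436, 399 and 457 CPM and LKO libraries 350, 348, 394 and 344, and every LKO library was below every WT library. The means were 407 ± 50.9 and 295 ± 48.4 on chow and 465 ± 73.0 and 359 ± 23.6 on HFD, WT first (SD, n = 4 each).

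By edgeR's test Gpd1 fell by 0.46 on the log2 scale in LKO on chow (SE 0.13, adjusted p = 0.0143). On HFD the log2 fold change was -0.37 (SE 0.13, adjusted p = 0.0544), short of the 0.05 threshold. The chow call was lost when only the 2 chow groups were fitted (adjusted p = 0.0519) and without LKO chow libraries 3 and 4 (adjusted p = 0.0813), and the HFD difference passed in 8 of 25 alternative analyses. Gpd1 shares 384 exon bases with the antisense gene Gm16537. The sources used here do not say that the counting used strand, so reads from the 2 genes cannot be told apart there.

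Aqp4 is a pure water channel best known from the astrocytes of the brain, and it was the second aquaporin with a higher level in LKO liver (chromosome 18, 15389496 to 15410982). On chow its CPM was 2.56, 6.87, 2.04 and 1.45 in WT and 8.81, 11.4, 10.2 and 9.56 in LKO. All 4 LKO libraries were above all 4 WT libraries, although WT library 2 came near them. On HFD it was 7.06, 7.72, 4.64 and 6.01 in WT and 29.8, 21.9, 14.2 and 24.4 in LKO, without overlap. The means were 3.23 ± 2.47 and 9.99 ± 1.10 CPM on chow and 6.36 ± 1.35 and 22.6 ± 6.48 on HFD, WT first (SD, n = 4 each).

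Aqp4 was called higher in LKO by edgeR's test on both diets. On chow the log2 fold change of Aqp4 was 1.60 (SE 0.364, adjusted p = 0.00474). The HFD value of Aqp4 was 1.83 (SE 0.346, adjusted p = 0.0016). Without WT chow library 2 the chow value was 2.31 (adjusted p = 1.34e-05). LKO HFD library 2 held 283.4 summed CPM of 5 skeletal muscle genes and WT HFD library 4 held 31.8, against 0.371 to 2.05 in the other libraries. Aqp4 was 21.9 CPM in LKO HFD library 2, where the other LKO HFD libraries had 14.2 to 29.8. In WT HFD library 4 it was 6.01 CPM, where the other WT HFD libraries had 4.64 to 7.72. By edgeR the HFD difference of Aqp4 was 1.84 without LKO HFD library 2 (adjusted p = 0.00438) and 1.80 without WT HFD library 4 (adjusted p = 0.00764). The part of muscle RNA in the Aqp4 values was not tested.

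Aqp8 (chromosome 7, 123462291 to 123468004) carries water across the canalicular membrane into bile. Its CPM varied widely inside each group. On chow WT libraries had 147, 395, 499.5 and 395 and LKO libraries 517, 193, 339 and 347. On HFD WT libraries had 125, 303, 230.4 and 122 and LKO libraries 211, 202, 307 and 202. Each genotype pair overlapped over most of its range, with log2 fold changes of -0.04 (SE 0.383, adjusted p = 0.956) on chow and 0.24 (SE 0.384, adjusted p = 0.735) on HFD.

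Aqp1 (chromosome 6, 55336432 to 55348555) is the water channel of endothelium, red cells and bile ducts. On chow its CPM was 48.9, 125, 83.1 and 51.4 in WT and 148, 119, 45.8 and 33.6 in LKO. On HFD it was 144, 32.2, 66.0 and 145 in WT and 63.5, 90.6, 41.8 and 87.4 in LKO. The highest library exceeded the lowest by 4.396 times within LKO chow and by 4.49 times within WT HFD. The log2 fold change of LKO against WT was 0.17 (SE 0.542, adjusted p = 0.864) on chow and -0.45 (SE 0.542, adjusted p = 0.639) on HFD. The chow value was -0.96 without LKO libraries 1 and 2, the high pair, and 0.79 without libraries 3 and 4, the low pair.

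The level of Aqp1 moved from library to library together with the summed CPM of the endothelial marker genes. It also moved with the sum for Kupffer cells, the macrophages of the liver. The 9 endothelial genes summed to 146, 331, 217 and 176 CPM in WT and 359, 298, 150.1 and 141 in LKO on chow. On HFD they summed to 385, 160, 229 and 358 CPM in WT and 191, 256, 172 and 258 in LKO. The 6 Kupffer cell genes summed to 185, 457, 231 and 184.5 CPM in WT and 435, 374, 93.9 and 196.5 in LKO on chow, and to 443, 275, 306 and 406 in WT and 328, 348, 294 and 537 in LKO on HFD. In each of the 4 groups the 2 libraries with most Aqp1 were the 2 with the largest endothelial sum and the 2 with the largest Kupffer cell sum. The 6 red blood cell genes did not run this way: on chow they summed to 828.5, 631, 638 and 1349 CPM in WT and 339, 470, 1583 and 883 in LKO. On HFD the red cell sum was 448.5 to 576 CPM in WT and 491 to 824.5 in LKO. Between genotypes, 1 of the 9 endothelial genes was called, Vwf, lower in LKO on HFD at -0.39 (adjusted p = 0.0444), where 17.9% of all genes were called. Not every gene of the endothelial and Kupffer cell lists followed its sum. On HFD Vwf was lowest within WT in library 1 (12.6 CPM), 1 of the 2 libraries with most Aqp1. Within LKO on HFD Vwf was highest in library 3 (12.2 CPM), where Aqp1 was lowest. Of the Kupffer cell genes, Marco on HFD was highest within WT in library 2 (11.95 CPM), where Aqp1 was lowest. Within LKO on HFD Marco and Timd4 were lowest in library 2 (2.79 and 4.38 CPM), where Aqp1 was highest. The part of either cell type in Aqp1's values was not tested, and in whole liver fewer cells of a type cannot be told apart from less RNA per cell. The summed CPM of 8 bile duct genes stayed within 46.2 to 79.2.

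**Figure D3:**
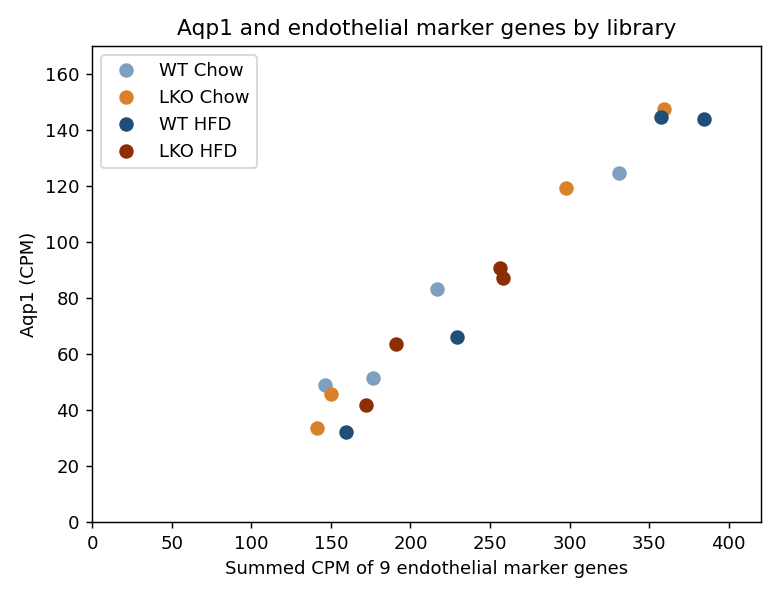
CPM of Aqp1 (vertical axis) against the summed CPM of 9 endothelial marker genes (horizontal axis), both linear, one point per library with the 4 groups in colour. Libraries with little of both, such as LKO chow 4 at 33.6 and 141 CPM, and with much of both, such as WT HFD 1 at 144 and 385 CPM, occur in more than one group.

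Aqp11 (chromosome 7, 97724006 to 97738289) is an unorthodox aquaporin of the endoplasmic reticulum. On chow its CPM was 45.4, 32.4, 29.2 and 36.9 in WT and 33.8, 37.0, 33.6 and 32.7 in LKO. On HFD it was 33.7, 41.6, 38.0 and 42.6 in WT and 48.2, 43.3, 37.7 and 44.2 in LKO. The genotypes overlapped on both diets, with log2 fold changes of -0.07 (SE 0.12, adjusted p = 0.737) and 0.15 (SE 0.12, adjusted p = 0.428).

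In all, 3 of the 7 tested genes were called between genotypes on chow, Aqp4 and Aqp7 higher and Gpd1 lower in LKO, where 24.7% of all 14434 genes were called. On HFD 2 of 7 were called, Aqp4 and Aqp7, against 17.9% of all genes. Nothing is read from these counts, because the choice of the list rested on Aqp7. The libraries of the 2 genotypes did not overlap for 2 of the 7 genes on chow, against 21.4% of all genes, and for 3 on HFD, against 27.7%. The median log2 fold change of the 7 genes was 0.01 on chow and 0.15 on HFD, and that of all genes was 0.02 and -0.01. Leaving out LKO chow libraries 3 and 4 gave 2 calls on chow.

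**Figure D4:**
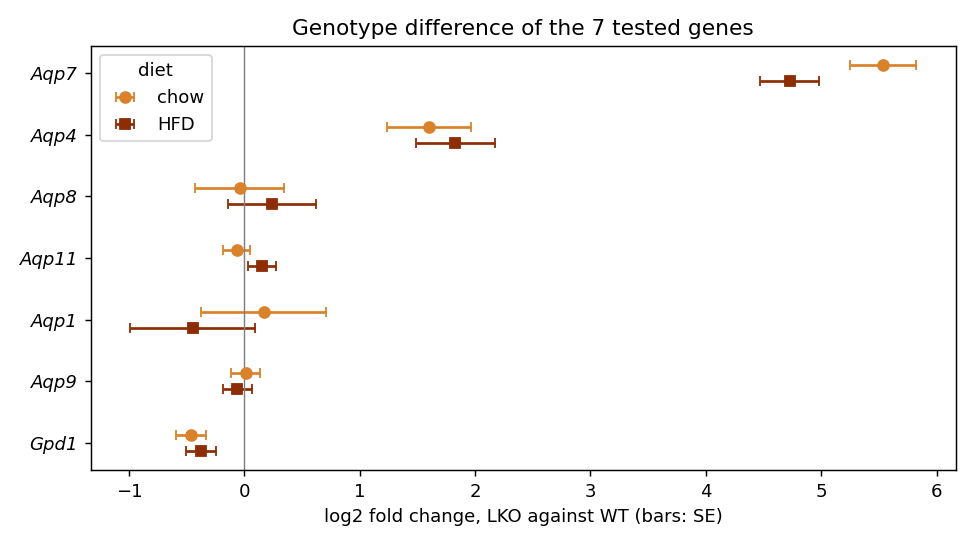
Log2 fold change of LKO against WT (horizontal axis, bars are SE) on chow and on HFD for the 7 tested genes. Aqp7 and Aqp4 lie above 1 on both diets, Gpd1 below 0 on both, and the bars of the other 4 reach or come near 0.

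None of the 7 genes passed the threshold between HFD and chow in either genotype. By edgeR 0 of 7 were called in WT, against 2.04% of all genes, and 0 of 7 in LKO, against 2.22%. At an unadjusted p below 0.05 there were 3 and 3, and nothing is read from these because the share of all genes at that threshold was not computed. DESeq2 called 0 of the 7 in WT, where it called 706 of all genes. In LKO it called 1, Aqp4, where it called 767 of all genes. The genotype by diet interaction was called for 0 of 7 by edgeR and by DESeq2, with 0 at an unadjusted p below 0.05 by edgeR. There edgeR called 0.0208% of all genes and DESeq2 called 46 genes. The diet comparison in WT uses the same WT chow libraries as the genotype comparison on chow, and likewise for LKO.

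Some of the diet differences were large without passing. Aqp4 had a log2 fold change of HFD against chow of 0.95 in WT (SE 0.369, adjusted p = 0.217) and 1.17 in LKO (SE 0.336, adjusted p = 0.0826), and the LKO libraries of the 2 diets did not overlap. Without WT chow library 2 the WT value was 1.64 (adjusted p = 0.00324) and the LKO value passed with it (adjusted p = 0.00677). Aqp7 differed by 1.08 in WT (SE 0.372, adjusted p = 0.153), where the libraries did not overlap, and by 0.27 in LKO (SE 0.193, adjusted p = 0.491).

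Aqp8 had values below 0 for HFD against chow, at -0.88 in WT (SE 0.386, adjusted p = 0.29) and -0.60 in LKO (SE 0.385, adjusted p = 0.451). Aqp11 differed by 0.12 in WT (SE 0.12, adjusted p = 0.725) and 0.34 in LKO (SE 0.12, adjusted p = 0.148), the latter without overlap of the libraries. Gpd1 had 0.19 in WT (SE 0.13, adjusted p = 0.536) and 0.28 in LKO (SE 0.13, adjusted p = 0.268). For Aqp1 and Aqp9 the libraries of the 2 diets overlapped in both genotypes. In CPM the groups of the 2 diets did not overlap for 1 of 7 genes in WT, Aqp7, against 9.53% of all genes. In LKO they did not overlap for 2, Aqp4 and Aqp11, against 10.2%.

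To compare levels between the 8 genes, CPM was divided by the merged exon length in kb. In WT liver on chow the order was Aqp8 with 227 CPM per kb, Gpd1 137.5, Aqp9 100.6, Aqp1 29.3, Aqp11 3.82, Aqp4 0.519, Aqp7 0.112 and Aqp3 0.0734. Neighbours whose libraries overlapped were Aqp8 and Gpd1, Gpd1 and Aqp9, and Aqp7 and Aqp3. In LKO liver on chow Aqp7 came after Aqp1, at 5.22 CPM per kb, overlapping Aqp11 at 3.64 and above Aqp4 at 1.602, and Aqp9 (101.4) and Gpd1 (99.7) overlapped. Among the glycerol channels, Aqp9 was above Aqp7 and Aqp3 per length in every group.

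On HFD the order in WT was Gpd1 157, Aqp8 123, Aqp9 93.9, Aqp1 36.8, Aqp11 4.14, Aqp4 1.02, Aqp7 0.234 and Aqp3 0.121 CPM per kb, with overlap among the first 3 neighbours and between Aqp7 and Aqp3. In LKO on HFD it was Aqp8 146, Gpd1 121, Aqp9 90.1, Aqp1 27.0, Aqp7 6.30, Aqp11 4.601, Aqp4 3.62 and Aqp3 0.104. There Aqp8 overlapped Gpd1, Aqp7 overlapped Aqp11, and Aqp11 overlapped Aqp4.

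Of the 5 other aquaporin genes, Aqp2, Aqp6 and Aqp12 were at 0 in all 16 libraries, which allows up to 0.157 CPM in the smallest library and 0.119 in the largest (3 counts). Aqp5 had 0 to 10 counts per library and Mip, the lens aquaporin, 0 to 2. None of the 5 had enough counts to be tested.

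The genes whose values over the 16 libraries ran most like those of Aqp7 were Fndc10, Slc13a5 and Ly6a. Their centred log2 CPM differed from that of Aqp7 by a root mean square of 0.429, 0.44 and 0.495. Slc13a5, the plasma membrane citrate carrier, averaged 0.887 CPM in WT and 26.5 in LKO on chow and 1.83 and 25.9 on HFD. Fndc10 averaged 0.546 and 18.2 CPM on chow and 0.603 and 29.0 on HFD, and Ly6a, the Sca-1 surface antigen, 11.5 and 332 on chow and 15.4 and 316 on HFD. For Aqp4 the most alike were Cabp4, Tmem71 and Apoa4, with root mean squares of 0.466, 0.546 and 0.548. Apoa4, an apolipoprotein of intestine and fatty liver, averaged 463 CPM in WT and 2081 in LKO on chow and 891 and 2784 on HFD. The other tested genes of the family varied too little between groups for such a ranking.

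Genes that make, use or release glycerol 3-phosphate and glycerol had few calls between genotypes, 2 of 18 on chow and 1 of 18 on HFD, where 24.7% and 17.9% of all genes were called. Of the 18, 1 rose in LKO on chow, the glycerol 3-phosphate phosphatase Pgp by 0.42 (adjusted p = 0.041), and 1 fell, the GPD1-like enzyme Gpd1l by 0.48 (adjusted p = 0.0104). On HFD 1 rose, the triose phosphate isomerase Tpi1 by 0.40 (adjusted p = 0.00283). Glycerol kinase, Gk, averaged 134 ± 12.2 CPM in WT and 116 ± 28.8 in LKO on chow and 112 ± 16.7 and 119 ± 5.85 on HFD, with adjusted p = 0.331 and 0.744. The median log2 fold change of the 18 was -0.07 on chow and -0.05 on HFD. Between diets 2 of the 18 were called in each genotype, against 2.04% of all genes in WT and 2.22% in LKO, and are named after their values were seen. Gpcpd1, a glycerophosphodiesterase, rose on HFD in WT (0.82) and in LKO (0.83), the gluconeogenic Pck1 fell in WT by 1.16, and the acyltransferase Gpat4 rose in LKO (0.58).

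Among 16 tested genes of lipolysis, which frees glycerol from triglyceride, 4 rose and 2 fell in LKO on chow and 5 rose and 1 fell on HFD, where 24.7% and 17.9% of all genes were called in either direction. Lpl, the lipoprotein lipase of vessel walls, rose by 2.71 on chow (adjusted p = 1.96e-07) and 1.497 on HFD (adjusted p = 7.46e-05). The monoglyceride lipase Abhd6 rose by 0.54 (adjusted p = 0.011) and 0.89 (adjusted p = 0.000313). Hormone-sensitive lipase, Lipe, had 0.30 on chow (adjusted p = 0.104) and rose by 0.71 on HFD (adjusted p = 0.000835), and Lipg fell on chow by 0.74 (adjusted p = 0.00807). Ces1g rose by 0.41 and 0.66 and Ces1f fell by 0.57 and 0.38, but the Ces1 genes are close copies and their counts are uncertain. The other calls, beyond the 6 lowest p-values, were Pnpla2 on chow (0.32) and Ces1d on HFD (0.43). The median was 0.11 on chow and 0.20 on HFD. Between diets Lpl rose on HFD in WT by 1.24 (adjusted p = 0.00427).

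Aqp7 is a known target of PPARG in fat, so PPARG and 13 genes it is known to activate were counted. Of the 11 tested, 4 rose in LKO on chow, where 24.7% of all genes were called, and 2 on HFD, a share near the 17.9% of all genes. Mogat1, an acyltransferase, rose by 3.36 (adjusted p = 8.18e-07) and 2.496 (adjusted p = 7.25e-06). Cidec, which enlarges lipid droplets, rose by 2.88 (adjusted p = 0.000158) and 2.80 (adjusted p = 0.000121). Plin4 rose by 1.61 (adjusted p = 0.0101) and the fatty acid carrier Cd36 by 0.38 (adjusted p = 0.0491) on chow. Pparg itself had 0.28 (adjusted p = 0.15) and -0.06 (adjusted p = 0.806). Between diets, with genes named after their values were seen, 4 of the 11 rose on HFD in WT and 1 fell, where 2.04% of all genes were called. Those that rose were Pparg at 0.66 (adjusted p = 0.0165), Plin4 at 2.13 (adjusted p = 0.0147), Cd36 at 0.54 (adjusted p = 0.0453) and Mogat1 at 1.55 (adjusted p = 0.0193), and Pck1, also in the glycerol list, fell. In LKO 1 rose, Cidec at 1.55 (adjusted p = 0.0357), where 2.22% of all genes were called. The adipocyte genes of the list other than Fabp4, among them Adipoq, Plin1 and Cidea, had too few counts to be tested. The median of the 11 was 0.28 on chow and 0.16 on HFD.

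Of 11 genes of canalicular bile and water secretion, the setting of Aqp8, 1 rose and 2 fell in LKO on each diet, where 24.7% of all genes were called on chow and 17.9% on HFD. The bile salt pump Abcb11 fell by 0.46 on chow (adjusted p = 0.00334) and 0.37 on HFD (adjusted p = 0.0186). On chow the anion pump Abcc2 fell by 0.53 (adjusted p = 0.00345) and the phospholipid floppase Abcb4 rose by 0.51 (adjusted p = 0.016). On HFD the sterol transporter Abcg8 fell by 0.68 (adjusted p = 0.0039) and the anion exchanger Slc4a2 rose by 0.28 (adjusted p = 0.0103). Between diets 2 rose and 1 fell on HFD in each genotype, against 2.04% of all genes called in WT and 2.22% in LKO. These were, named after their values were seen, the sterol transporters Abcg5 at 2.09 in WT and 1.32 in LKO and Abcg8 at 1.87 and 1.09, and Abcb11 at -0.54 and -0.45. The median between genotypes was -0.34 on chow and -0.10 on HFD, while Aqp8 stood at -0.04 and 0.24.

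**Figure D5:**
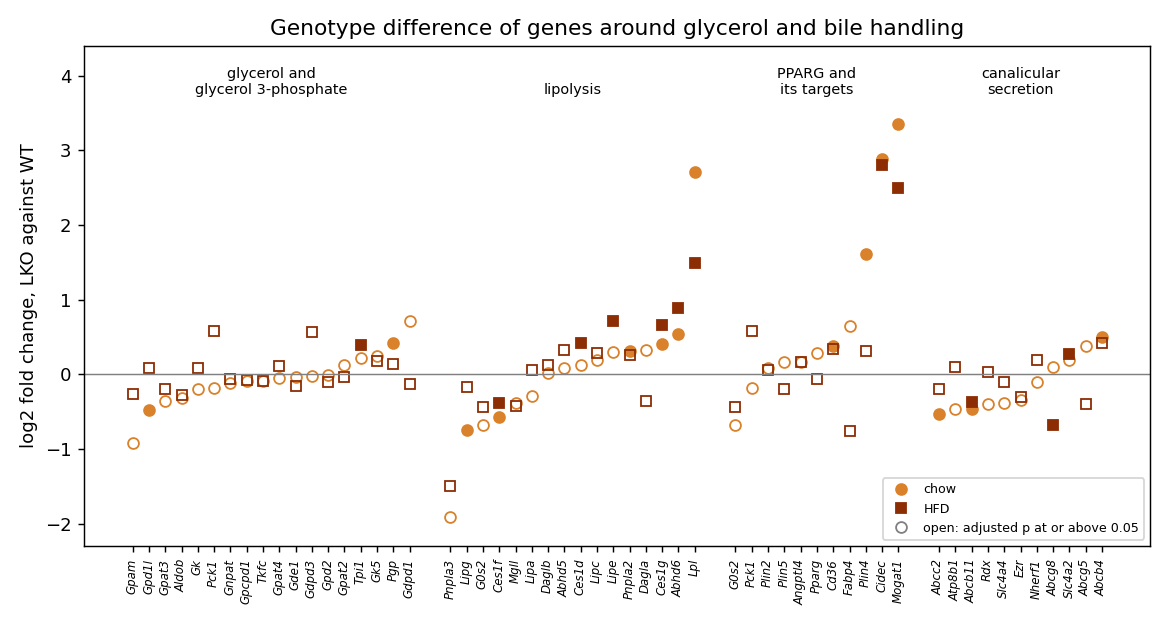
Log2 fold change of LKO against WT (vertical axis) on chow and HFD for each tested gene of 4 lists, glycerol and glycerol 3-phosphate metabolism, lipolysis, PPARG and its targets, and canalicular secretion, ordered within a list by the chow value. Filled symbols have an adjusted p below 0.05; Mogat1 (3.36 on chow), Cidec (2.88) and Lpl (2.71) stand highest.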

How the data were processed

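Liver RNA was enriched for poly(A), made into libraries and read as paired ends, per the labels' protocols. The authors deposited 2 tables of estimated counts per gene, not normalized. The first has 15119 genes, all above 0 in every library. The second has 35712 genes, and its 8 chow columns lie 1 row too low and were moved up here. After that the chow values of all 15119 shared genes matched. Over all 16 libraries 1 value differed, of Acat2 in an HFD library. Per the submitters' processing notes the build was mm10 and the tools included Bowtie2 and DESeq2, with no version or role. The counting tool and annotation are not given in the sources used here.

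Estimated counts were rounded and fitted with edgeR 4.0.16 (limma 3.58.1, R 4.3.3): TMM scaling, filterByExpr by group, 1 mean per group over 16 libraries, robust quasi-likelihood test, 2-sided, with Benjamini-Hochberg adjustment over 14434 genes. A gene was called at an adjusted p below 0.05 with no fold minimum. SE is the standard error of a log2 fold change. Gene positions and merged exon lengths came from GENCODE M21 (GRCm38), similar transcripts from blastn 2.17.0 and promoter windows from RefSeq. The procedure was tested on simulated data. Alternatives were DESeq2 1.42.0, other scalings, no filter, the second table, only the groups compared, a replicate block and libraries left out.

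The genes and lists were chosen with earlier results of these data known. Named are all 8 genes, the other aquaporins, up to 6 genes per list called between genotypes by lowest p (further called genes were named after their values were seen), and, for genes whose group means of log2 CPM (prior count 2) span at least 1, the 3 genes with the smallest root mean square difference of centred profiles. The labels do not state that numbers shared between groups pair the libraries, and the main fit did not pair them. Of 24 same-numbered pairs, 5 had deviations correlated over 0.1 (median -0.018, from -0.278 to 0.318). They were not compared with pairs of unlike number, so this cannot settle whether libraries are paired.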

Additional observations from a re-analysis of the deposited data

Results flagged for a closer look

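In groups of 4 libraries, a highest or lowest library was looked at again where its gap to the nearest other library, divided by the range of the group, exceeded Dixon's 95% value, which chance exceeds in about 1 in 20 groups. Aqp9 in WT on chow reached 486.1 CPM in library 1, with a gap of 0.834 of the range. Library 3 of LKO on HFD stood highest for both Aqp8, at 306.6 CPM (gap 0.916), and Gpd1, at 394.1 CPM (gap 0.886). That library was also the lowest of its group for Aqp1, Aqp4, Aqp7, Aqp9 and Aqp11, at 41.8, 14.2, 14.2, 319 and 37.7 CPM.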

How the results depend on the processing

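The genotype difference of Aqp7 stayed between 5.28 and 5.83 on chow and between 4.61 and 4.83 on HFD over 25 alternatives, and that of Aqp4 between 1.36 and 2.31 (adjusted p 1.34e-05 to 0.0333) and between 1.67 and 1.998 (adjusted p 9.78e-07 to 0.00782). Gpd1 ranged from -0.57 to -0.38 on chow (adjusted p 0.00318 to 0.0813) and from -0.44 to -0.26 on HFD (adjusted p 0.023 to 0.191). The count of the 7 genes called between diets in LKO was 1 with DESeq2 and with only the groups compared, and 0 to 1 with libraries left out one at a time. The same count in WT was 0 to 1 with libraries left out. Without WT chow replicate 2 both were 1.

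Several differences close to 0 changed sign. For Aqp1 on chow the value was -0.96 without LKO chow libraries 1 and 2 and -0.22 to 0.50 with single libraries left out. For Aqp8 on chow it was 0.008 with upper-quartile scaling, and -0.30 to 0.16 with single libraries left out. For Aqp9 on chow it was -0.011 with DESeq2, -0.008 with DESeq2's size factors, -0.083 without LKO chow libraries 3 and 4, and -0.054 to 0.093 with single libraries left out, and on HFD it was -0.166 to 0.008. For Aqp11 on chow it was -0.156 to 0.063. The cause was not tested. With the replicate block, which the labels' numbers do not justify as a pairing, Aqp8 on chow was 0.053 and no call of the 7 genes changed, while all-gene calls went from 3565 to 3257 on chow and from 3 to 0 for the interaction.

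Over all alternatives the number of all genes called ranged from 2152 to 5036 on chow, 1977 to 3618 on HFD, 155 to 706 between diets in WT, 111 to 2768 in LKO and 0 to 1264 for the interaction. The counts of 5036, 2768 and 1264 came without LKO chow libraries 1 and 2. Depth limits Aqp3 and, in WT liver, Aqp7, whose counts there are few.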
